A study of Mus musculus with 3 samples.

Results

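Notch receptors, their ligands, the DNA-binding partner and the target genes were followed in C2C12 cells, mouse myoblasts in culture that form myotubes when serum is low, after silencing of the TEAD-family transcription factor Tead4. The 10 genes were taken by symbol from a table of 20162 genes: the receptors Notch1, Notch2 and Notch3, the ligands Jag1 and Dll1, the DNA-binding factor Rbpj, the inhibitor Numb, and the targets Hes1, Hey1 and Heyl. Of these, 10 of 10 passed the low-count filter. Polyadenylated RNA was sequenced from 3 cell populations, with 1 library each: Tead4 shRNA A, Tead4 shRNA B and a control shRNA. The Tead4 hairpins are independent short hairpin RNAs against the same gene, and the control population carried a control hairpin. All 3 populations were infected with a lentivirus, kept under puromycin and differentiated for 7 days in medium with 2% horse serum. Each library came from a selected cell population, and nothing in the labels describes repeat cultures.

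Notch signalling runs between touching cells. A Delta-like or Jagged ligand on 1 cell binds a Notch receptor on its neighbour, the receptor is cut by an ADAM protease and then by gamma-secretase, and the freed intracellular domain joins RBPJ and a Mastermind coactivator on DNA. The HES and HEY genes that are switched on code for repressors of transcription. In muscle the pathway is known for holding satellite cells and reserve cells, the undifferentiated cells that remain beside myotubes, out of differentiation, and Numb is known to oppose the receptors.

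The libraries held 19918954 counted reads (Tead4 shRNA A), 15594305 (Tead4 shRNA B) and 16412139 (control shRNA). Levels are given as CPM, the depth-scaled read count, with library sizes corrected by edgeR's trimmed-mean factors (TMM). Tead4 had 397 and 170 reads with shRNAs A and B, against 1256 in the control library. These are levels of 19.7 and 10.8 CPM against 78.2 CPM. The remaining Tead4 level was higher with shRNA A than with shRNA B (log2 ratio 0.87, 95% exact counting interval 0.61 to 1.14). The 9 of 9 listed muscle markers in the table had reads in all 3 libraries, among them Acta1 with 5333, 6440 and 7043 CPM in the shRNA A, shRNA B and control libraries. The summed level of each list of endothelial, immune, adipocyte and bone markers was at most 3.11 CPM in any library. The gene table held only 4 of 5 listed endothelial, 2 of 5 immune, 1 of 5 adipocyte and 3 of 4 bone markers. The sums say nothing of the markers that are missing from it. A single Tead4 shRNA library is compared with the control library through their ratio of CPM, with a 95% exact interval (Clopper-Pearson) that covers counting error only. The test over both Tead4 shRNA libraries against the control library is edgeR's quasi-likelihood test, adjusted over the 14478 genes tested with a threshold of 0.05. It rests on 1 residual degree of freedom, the control library being assumed to vary like the pair of Tead4 shRNA libraries.

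With Tead4 shRNA, the ligand Dll1 and the targets Heyl and Hes1 rose, while the ligand Jag1 and the DNA-binding factor Rbpj fell. Thus 3 of the 10 genes rose and 2 fell, where 5.34% of all tested genes rose and 4.48% fell. The 10 genes were chosen with earlier results of these data known, so the shares given here are descriptive and cannot show an excess. The receptors, Numb and Hey1 did not pass the test. The median log2 fold change of the 10 genes was 0.42, beside 0.02 for all tested genes. Split by hairpin, the median log2 ratio of these 10 genes over the control library reached 0.48 for shRNA A but only 0.14 for shRNA B. Across all tested genes the corresponding medians were 0.004 and 0.02. Both Tead4 shRNA ratios lay above no change, intervals included, for 5 of the 10 genes (21.7% of tested genes), and below it for 2 (21.4% of tested genes). Both ratios were at least 1.5-fold higher with such intervals for 3 (8.99% of tested genes) and at least 1.5-fold lower for 2 (7.03% of tested genes). The same control library stands under both ratios, so the pair is not 2 independent comparisons.

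**Figure D1:**
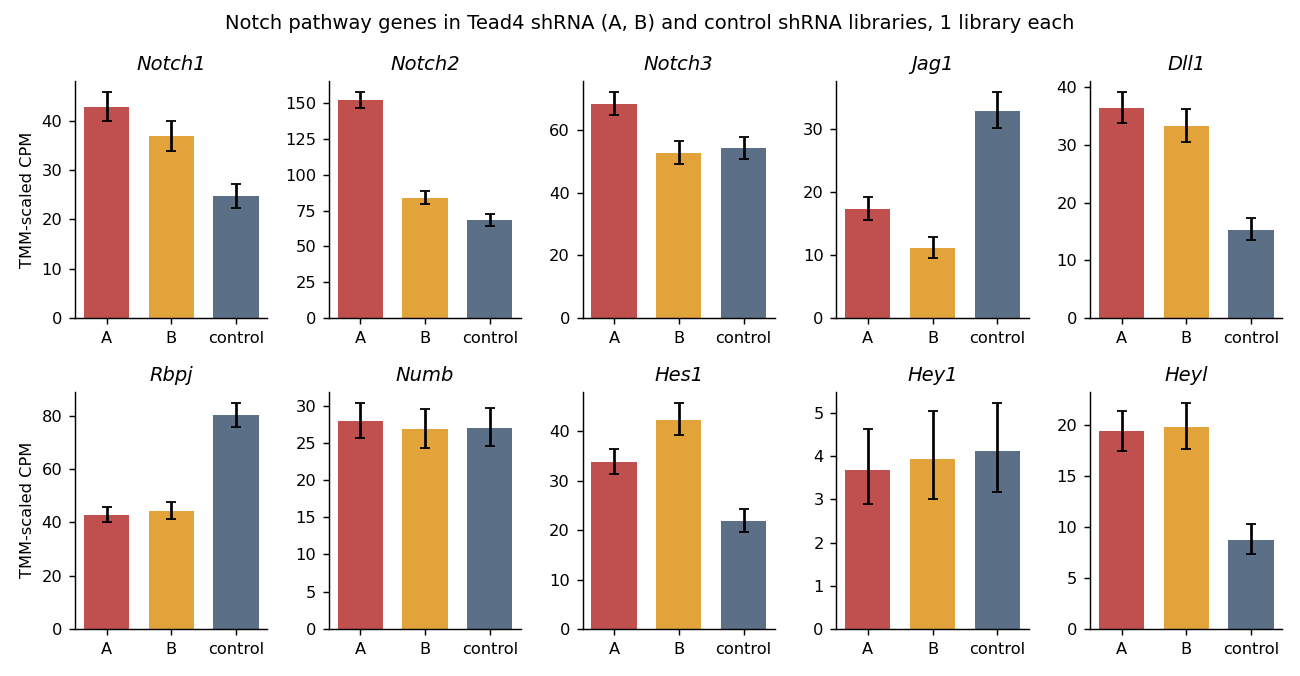
Level of each of the 10 genes in TMM-scaled CPM (vertical axis, from 0, a scale of its own in each panel) in the Tead4 shRNA A, Tead4 shRNA B and control shRNA libraries, 1 bar per library with its 95% exact Poisson counting interval. Dll1, Hes1, Heyl, Notch1 and Notch2 stand higher in both Tead4 shRNA libraries, though Notch1 and Notch2 did not pass the test. Jag1 and Rbpj stand lower, and Numb and Hey1 have overlapping intervals in all 3 libraries.

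The ligands Dll1 and Jag1 changed in opposite directions. Dll1, a Delta-like ligand that activates Notch receptors on neighbouring cells, had 731 and 524 reads with shRNAs A and B, against 246 in the control library. These are levels of 36.3 and 33.3 CPM against 15.3 CPM, and both Tead4 shRNA libraries lay above the control library. On the log2 scale the ratios over the control library were 1.25 (1.04 to 1.46) for shRNA A and 1.12 (0.90 to 1.34) for shRNA B, and the fitted log2 fold change was 1.18 (SE 0.25, adjusted p = 0.00344 by edgeR). By the GENCODE M21 annotation, 624 of the 3581 exon bases of Dll1 are shared with A930024N18Rik on the opposite strand, and the library kit does not mark strand, so reads of these genes cannot be told apart there.

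Jag1, the ligand of the Jagged type, had 350 and 176 reads with shRNAs A and B, against 529 in the control library. Its levels were 17.4 and 11.2 CPM against 32.9 CPM, so both Tead4 shRNA libraries lay below the control library. The log2 ratios were -0.92 (-1.12 to -0.72) for A and -1.56 (-1.81 to -1.31) for B, and Jag1 fell by 1.20 over both (log2 fold change, SE 0.26, adjusted p = 0.00377). Jag1 was higher in the shRNA A than in the shRNA B library, with a log2 ratio of A over B of 0.64 (0.37 to 0.91).

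Set within each library, where scaling cancels, Dll1 had 2.09 reads for each Jag1 read with shRNA A (95% exact interval 1.84 to 2.38) and 2.98 with shRNA B (2.51 to 3.55), against 0.465 in the control library (0.398 to 0.542). The intervals of the Tead4 shRNA libraries do not overlap that of the control library. Per length, using exon bases of the GENCODE M21 annotation, the level of Dll1 was 3.27 and 4.67 times that of Jag1 with shRNAs A and B, and 0.729 times in the control library. Jag2, a further Jagged ligand named after its values were seen, was not called (log2 fold change 0.39, SE 0.24, adjusted p = 0.366), with 700 and 608 reads against 448. Among the length-scaled reads of Dll1, Jag2 and Jag1, Jag1 made up 15.5% and 10.6% with shRNAs A and B, against 37.6% in the control library. Dll1 made up 50.6% and 49.3% against 27.4%, and by this length-scaled measure was the most abundant of the 3 with either Tead4 hairpin. Without length scaling, Jag2 had more reads than Dll1 with shRNA B (608 against 524). Dll4 had 2 reads with shRNA A and none in the other libraries, and Dll3 had none in any library, which allows up to 3 reads each.

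**Figure D2:**
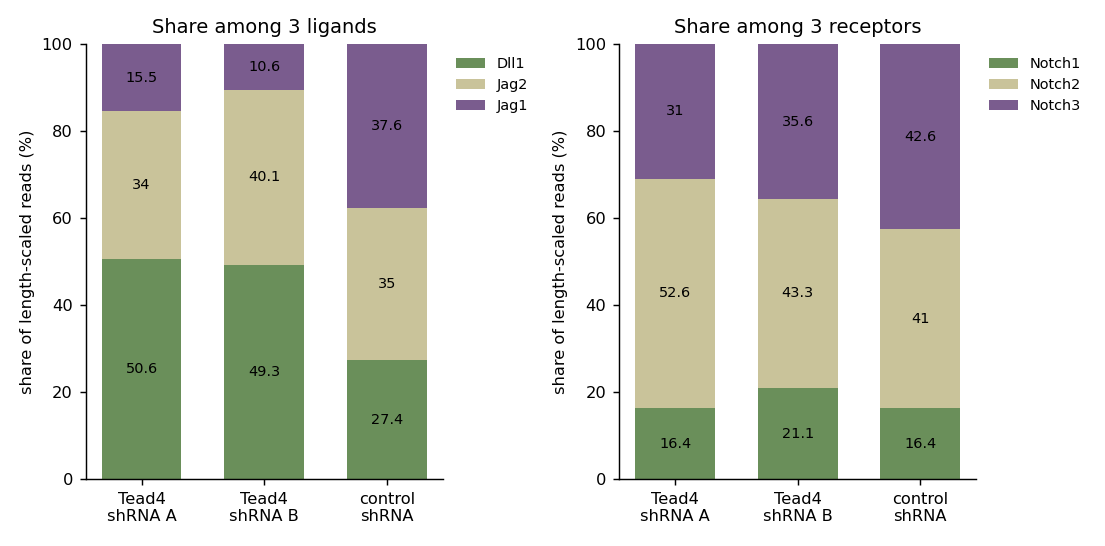
Shares of length-scaled reads in percent (vertical axis) among the ligands Dll1, Jag2 and Jag1 (left) and the receptors Notch1, Notch2 and Notch3 (right) in the Tead4 shRNA A, Tead4 shRNA B and control shRNA libraries, 1 library per bar. Jag1 holds 15.5% and 10.6% of the ligand reads with the Tead4 hairpins and 37.6% in the control library, and Notch2 holds 52.6% and 43.3% of the receptor reads against 41.0%.

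The promoter table used here held 11 windows of 7 of the 10 genes (not Hes1, Hey1 or Heyl). The 250 bases before each annotated start of Jag1 and Dll1 are shown because these ligands changed in opposite directions. They are from RefSeq on the build GRCm38.p6, written 5′ to 3′ on the strand of the gene, with capitals for matches on either strand to TGGGAA (core of the RBPJ site), GGAATG (core of the TEAD site) or CAGCTG (an E-box of the kind bound by myogenic factors).
Jag1 (GRCm38.p6, chr2:137116521-137116770, minus strand): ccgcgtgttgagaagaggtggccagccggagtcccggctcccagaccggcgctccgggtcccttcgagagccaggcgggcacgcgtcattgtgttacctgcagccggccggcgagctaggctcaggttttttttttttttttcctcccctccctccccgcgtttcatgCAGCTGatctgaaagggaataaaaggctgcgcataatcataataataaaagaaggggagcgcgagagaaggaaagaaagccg
Dll1, first window (GRCm38.p6, chr17:15375824-15376073, minus strand): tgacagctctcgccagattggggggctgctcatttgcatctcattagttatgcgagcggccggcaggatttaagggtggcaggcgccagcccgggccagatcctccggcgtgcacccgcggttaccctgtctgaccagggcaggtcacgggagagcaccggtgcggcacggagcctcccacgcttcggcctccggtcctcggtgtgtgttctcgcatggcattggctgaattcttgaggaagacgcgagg
Dll1, second window (GRCm38.p6, chr17:15376933-15377182, minus strand): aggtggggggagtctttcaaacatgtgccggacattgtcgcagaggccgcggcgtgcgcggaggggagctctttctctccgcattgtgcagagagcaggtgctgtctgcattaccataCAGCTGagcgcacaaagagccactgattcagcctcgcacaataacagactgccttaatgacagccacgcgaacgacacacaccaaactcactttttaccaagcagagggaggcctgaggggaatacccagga
The only capitals are 1 CAGCTG in the Jag1 window, 77 to 82 bases before the start, and 1 in the second Dll1 window, 127 to 132 bases before it. Over all 32851 promoter windows of the table, cut to the same length, 13% held CAGCTG, 12.6% GGAATG and 21.6% TGGGAA. A match is a run of letters only and was not tested for binding.

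Among the receptors, Notch1 and Notch2 were higher in both Tead4 shRNA libraries than in the control library but did not pass the test. Notch1 had 861 and 581 reads with shRNAs A and B, against 397 in the control library (42.8 and 36.9 CPM against 24.7 CPM). Its log2 ratios were 0.79 (0.62 to 0.97) and 0.58 (0.39 to 0.76), and its log2 fold change was 0.69 (SE 0.24, adjusted p = 0.0798). Of the 9488 exon bases of Notch1, 964 are shared with 0610009E02Rik and 414 with Gm13568, both on the opposite strand.

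Notch2 differed most between the hairpins among the 10 genes. It had 3056 and 1323 reads with shRNAs A and B, against 1096 in the control library, or levels of 151.9 and 84.0 CPM against 68.3 CPM. The shRNA A library stood far above the other two. Its log2 ratios were 1.15 (1.05 to 1.26) for shRNA A and 0.30 (0.18 to 0.42) for shRNA B, and the log2 ratio of A over B was 0.86 (0.76 to 0.95). The fitted log2 fold change was 0.79 (SE 0.28, adjusted p = 0.0814). With other low-count filters the adjusted p was 0.0134 (no filter) and 0.0102 (at least 1 CPM in all 3 libraries). Of its 10500 exon bases, 541 are shared with Gm42820 on the same strand.

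Notch3, the receptor known from smooth muscle and from satellite cells, had 1372 and 831 reads with shRNAs A and B, against 869 in the control library. Its log2 ratios were 0.33 (0.21 to 0.46) for A and -0.04 (-0.18 to 0.10) for B, so only the shRNA A library stood apart from the control library. The log2 fold change was 0.16 (SE 0.23, adjusted p = 0.769), and 488 of its 8016 exon bases are shared with Gm17276 on the opposite strand. Notch4 had 8 and 3 reads against 4 and was not tested.

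Per kilobase of exon, Notch2 had the highest level of the receptors with shRNA A, at 14.5 CPM per kilobase (95% exact Poisson interval 13.96 to 14.99), ahead of Notch3 at 8.51 and Notch1 at 4.51. The order was the same with shRNA B, at 7.996 (7.57 to 8.44), 6.58 (6.14 to 7.04) and 3.89. In the control library, Notch3 at 6.75 (6.31 to 7.22) and Notch2 at 6.50 (6.12 to 6.90) did not differ beyond their counting intervals, and Notch1 had 2.61. Notch3 made up 31.0% and 35.6% of the length-scaled receptor reads with shRNAs A and B, against 42.6% in the control library. The share of Notch1 was 16.4% and 21.1% against 16.4%.

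Rbpj, which codes for the DNA-binding factor that all Notch receptors act through, fell to nearly the same level with both hairpins. It had 863 and 699 reads with shRNAs A and B, against 1289 in the control library, or 42.9 and 44.4 CPM against 80.3 CPM. Its log2 ratios were -0.90 (-1.03 to -0.78) and -0.86 (-0.99 to -0.72), with a ratio of A over B of -0.05 (-0.19 to 0.10), and the log2 fold change was -0.88 (SE 0.21, adjusted p = 0.00944). The genome holds processed pseudogenes of Rbpj (Rbpj-ps1 and Rbpj-ps3 in GENCODE M21), and how reads that fit both were counted is not given in the sources used here, so its count is uncertain to that extent.

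The window before the upstream annotated start of Rbpj is shown by the same conventions. Of the 11 windows available, which leave out Hes1, Hey1 and Heyl, only this window had matches to both the RBPJ and the TEAD core. The share of all promoter windows with both was not counted, so the joint match cannot be called unusual.
Rbpj (GRCm38.p6, chr5:53590096-53590345, plus strand): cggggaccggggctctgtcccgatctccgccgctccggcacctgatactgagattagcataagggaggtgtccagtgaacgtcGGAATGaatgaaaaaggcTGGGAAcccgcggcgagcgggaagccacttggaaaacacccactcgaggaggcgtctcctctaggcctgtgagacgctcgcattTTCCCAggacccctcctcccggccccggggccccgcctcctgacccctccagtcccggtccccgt
From left to right the capitals mark GGAATG at 162 to 167 bases before the start, TGGGAA at 144 to 149 bases and TTCCCA, the reverse complement of TGGGAA, at 60 to 65 bases. A second annotated start lies downstream, and its window overlaps this one and shares the last of these matches. In the Notch1 window, CATTCC, the reverse complement of the TEAD core, occurred at 211 to 216 and at 228 to 233 bases before the start. The windows of Notch2, Notch3 and Numb held no match.

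Numb, a membrane-associated inhibitor of Notch receptors that is passed unequally to daughter cells, had 562 and 423 reads with shRNAs A and B, against 434 in the control library. Its levels of 27.9 and 26.8 CPM lay on both sides of the 27.0 CPM of the control library. The log2 ratios were 0.05 (-0.14 to 0.23) and -0.01 (-0.21 to 0.19), and the log2 fold change was 0.02 (SE 0.24, adjusted p = 0.980). The counting intervals leave room for changes of up to 0.23 on the log2 scale. Numb shares 72 of its 3729 exon bases with Gm46367 on the opposite strand.

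Of the target genes, Heyl and Hes1 rose and Hey1 was not called. Heyl, which codes for a HEY-family repressor, had 389 and 312 reads with shRNAs A and B, against 140 in the control library, or 19.3 and 19.8 CPM against 8.72 CPM. The log2 ratios were 1.15 (0.87 to 1.44) and 1.18 (0.89 to 1.48), and the ratio of A over B was -0.03 (-0.25 to 0.19). The fitted change of Heyl was 1.17 on the log2 scale (SE 0.28, adjusted p = 0.00891). With DESeq2 the adjusted p was 0.0552.

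Hes1, the HES-family repressor known as a direct Notch target in many tissues, had 681 and 668 reads with shRNAs A and B, against 350 in the control library. Its levels were 33.9 and 42.4 CPM against 21.8 CPM, and both Tead4 shRNA libraries lay above the control library. The log2 ratios were 0.64 (0.45 to 0.83) for A and 0.96 (0.77 to 1.15) for B. The shRNA A library was below the shRNA B library (log2 ratio of A over B -0.32, -0.48 to -0.17). The log2 fold change of 0.80 (SE 0.25) had an adjusted p of 0.0438, and over 8 alternative settings the adjusted p ran from 0.0229 to 0.162. RLE scaling (0.0659), limma-voom (0.0519) and DESeq2 (0.162) each ended the call.

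Hey1, the HEY-family member with the fewest reads of the 10 genes, had 74 and 62 reads with shRNAs A and B, against 66 in the control library. The log2 ratios were -0.16 (-0.66 to 0.34) and -0.06 (-0.59 to 0.46), and the log2 fold change was -0.11 (SE 0.42, adjusted p = 0.925). A change of the size seen for Heyl lies outside both intervals, and changes within them were not detectable at this depth. Per kilobase of exon, Hes1 had 23.1 and 28.9 CPM with shRNAs A and B against 14.8 in the control library, Heyl 4.26 and 4.36 against 1.92, and Hey1 1.52 and 1.62 against 1.70. The order Hes1, Heyl, Hey1 held with both Tead4 hairpins, while in the control library the counting intervals of Heyl (1.62 to 2.27) and Hey1 (1.31 to 2.16) overlapped.

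**Figure D3:**
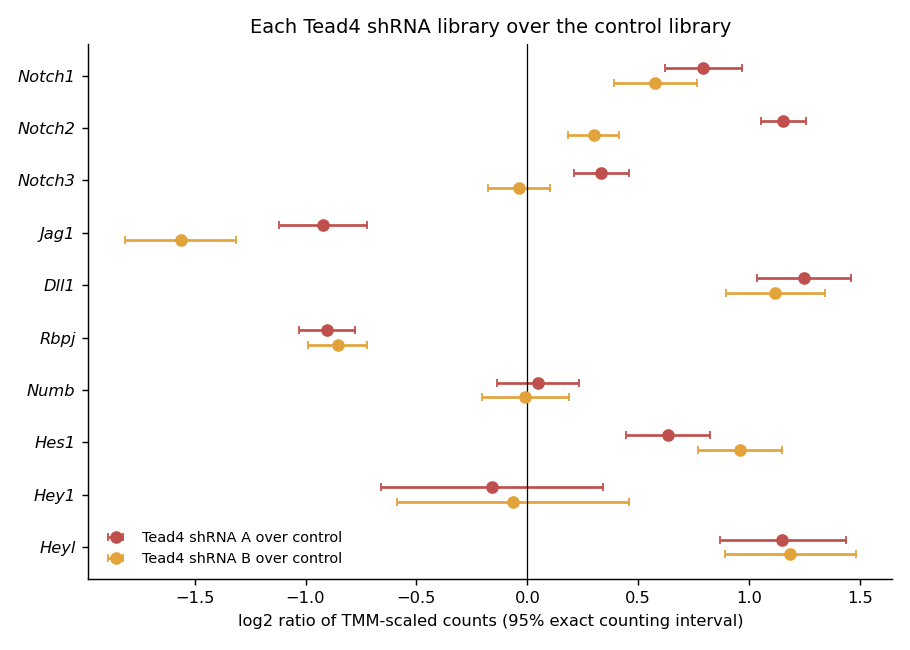
Log2 ratio of TMM-scaled counts of the Tead4 shRNA A library (upper point of each pair) and the Tead4 shRNA B library (lower point) over the control library, with 95% exact counting intervals, for the 10 genes. The largest gap between the hairpins is that of Notch2 (1.15 against 0.30), and the points of Rbpj and Heyl nearly coincide.

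The libraries of the Tead4 hairpins were at the same level within counting error for Dll1, Rbpj, Numb, Hey1 and Heyl, while the intervals of A over B excluded no difference for the other 5 of the 10 genes (50.6% of tested genes). Notch1, Notch2, Notch3 and Jag1 were higher with shRNA A and Hes1 was higher with shRNA B. The genes nearest to Hes1 in the pair of log2 ratios (Euclidean distance) were sought among 10660 genes with a mean of at least 5 CPM. Predicted genes with Gm or Rik names were left out of this set. The nearest were Trib1 (0.62 and 0.94, distance 0.02), Sema4d (0.63 and 1.002, distance 0.04) and Dok7 (0.67 and 0.9998, distance 0.05). In all, 19 genes lay within a distance of 0.1, and the likeness rests on 2 libraries.

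Beyond the 10 genes, the table held 59 of 64 further listed genes of the pathway that are reported here, and 50 were tested. Of these, 1 rose and 0 fell, where 5.34% of all tested genes rose and 4.48% fell. With DESeq2, 0 of the 50 rose and 0 fell, and 12 had an unadjusted p under 0.05 in edgeR's test, where 3143 of the 14478 tested genes (21.7%) did. Maml2, a Mastermind coactivator that bridges the Notch intracellular domain and RBPJ, had 344 and 208 reads with shRNAs A and B, against 118 in the control library. Maml2 rose by 1.05 on the log2 scale (SE 0.31, adjusted p = 0.0330), and RLE scaling (0.0532) and DESeq2 (0.184) ended the call.

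Of the 10 genes for receptor cleavage, 0 were called, with a median log2 fold change of 0.09, and 1 had an unadjusted p under 0.05 (21.7% of all tested genes did). The convertase Furin, which makes the first cut of the receptor, had a log2 fold change of 0.65 (SE 0.24) and the protease Adam10 had 0.08 (SE 0.23). All 4 tested genes of receptor glycosylation had positive values but 0 were called, with 3 at an unadjusted p under 0.05 (21.7% of all tested genes). The values were 0.58 (SE 0.23) for the fucosyltransferase Pofut1 and 0.04 (SE 0.22) for the glucosyltransferase Poglut1. The Fringe gene Lfng, named after its values were seen, had 121 and 59 reads against 28, and was not called at 1.49 on the log2 scale (SE 0.49, adjusted p = 0.0580).

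The ubiquitin ligases that act on ligands in the signal-sending cell were not called either (0 of 4, with 2 at an unadjusted p under 0.05, beside 21.7% of all tested genes), among them Neurl1a (-0.57, SE 0.23) and Mib1 (0.13, SE 0.23). Of 12 tested genes of receptor inhibition and turnover 0 were called, with 1 at an unadjusted p under 0.05 (21.7% of all tested genes). DESeq2 and limma-voom likewise called 0 genes for receptor cleavage, glycosylation, ligand activation and turnover. Other settings called Lfng (adjusted p = 0.0442 with total counts only, 0.0146 with no filter and 0.0141 with at least 1 CPM in all 3 libraries) and Furin (0.0450 with the last of these). The ubiquitin ligase Nedd4 had a log2 fold change of 0.59 (SE 0.26) and the Deltex gene Dtx4 had 0.34 (SE 0.23). Of the corepressors reported here, those of highest CPM were Fhl1 (0.15, SE 0.24) and Ncor1 (0.08, SE 0.23), and neither was called. Of the non-canonical ligands only Dlk2 was tested (-0.85, SE 0.57), and Dner had 6 and 1 reads against 4. Hes6, a HES-family gene known to promote myogenic differentiation and named after its values were seen, was not called (0.71, SE 0.25, adjusted p = 0.0795), with 4538 and 4691 reads against 2571.

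**Figure D4:**
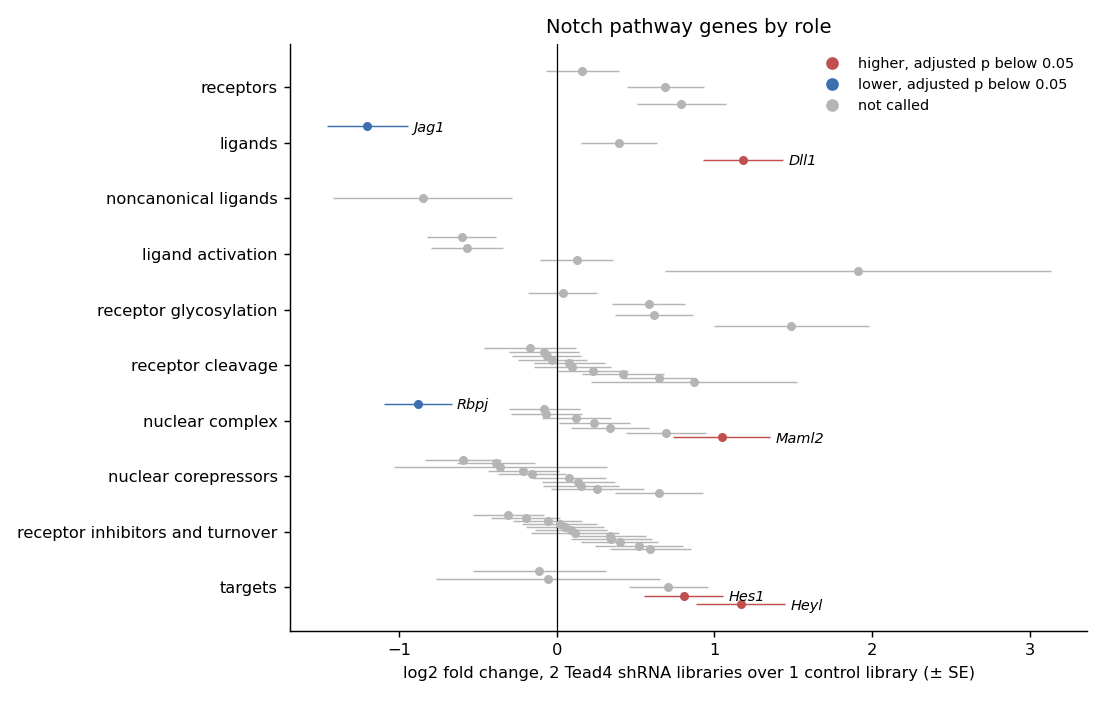
Log2 fold change of both Tead4 shRNA libraries over the control library (horizontal axis, bars ± SE, 1 point per tested gene) for Notch pathway genes grouped by role. Red points passed the test as higher (Dll1, Maml2, Hes1, Heyl), blue points as lower (Jag1, Rbpj), and grey points did not pass it.

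Genes of other cell states moved in the same libraries, where 5.34% of all tested genes rose and 4.48% fell. The marker lists were chosen with earlier results of these data known. In bulk RNA a change in the share of cells of 1 type and a change in RNA per cell cannot be told apart. The 8 markers of dividing cells rose in 8 of 8 cases, with Top2a at 1207 and 951 reads with shRNAs A and B against 257 and Mki67 at 858 and 613 reads against 109, and a summed level of 197.3 and 200.5 CPM against 44.0 CPM. Of 10 tested markers of reserve cells, 4 rose and 1 fell. The marker that fell was Myf5, with 261 and 264 reads against 608 (-1.35, SE 0.24, adjusted p = 0.000668 by edgeR). The summed level of the 10 markers was 821.4 and 749.4 CPM with shRNAs A and B, against 569.6 CPM in the control library. The most abundant of these, Sdc4 (0.19, SE 0.23) and Rbl2 (0.35, SE 0.23), were not called, and Pax7, which defines satellite cells, was at 14.1 and 13.5 CPM against 8.84 CPM (adjusted p = 0.204). Of 5 tested smooth muscle markers 4 rose, the most abundant being Acta2 (3682 and 2884 CPM against 1540 CPM) and Tagln (220.6 and 163.2 CPM against 64.3 CPM), while Myh11 had 5, 0 and 3 reads. Muscle markers summed to 13019 and 15617 CPM against 20606 CPM, with 4 of 9 lower and 0 higher. The part of these cell states in the values of the Notch pathway genes was not tested.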

How the data were processed

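The table deposited by the authors lists raw counts of reads by Ensembl gene for 1 library each of Tead4 shRNA A, Tead4 shRNA B and control shRNA, from single-end reads of 72 bases, per the labels' protocols. A normalized score beside each count was deposited by the authors: the count times about 0.801, 1.02 and 1.00 for the shRNA A, shRNA B and control libraries, rounded, and it was not used. TopHat 1.0.12, DESeq, Cufflinks 0.8.2 and the mm9 build are named, without roles, in the submitters' processing notes. The counting program and the treatment of multi-mapped reads are not given in the sources used here.

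Counts were tested with edgeR 4.0.16 in R 4.3.3 (filterByExpr, TMM, quasi-likelihood F test, Benjamini-Hochberg adjustment), with 1 residual degree of freedom. The spread behind a p-value comes from the 2 libraries of different Tead4 hairpins, moderated across genes (median prior degrees of freedom 20.9). It includes any difference between the hairpins and may otherwise be technical, and the labels describe no repeat cultures. The procedure was tested on simulated data in which all libraries varied alike and no difference between hairpins was set. That run cannot show how the test fares where the control library or the hairpins vary otherwise. Single-library ratios carry Clopper-Pearson intervals; intervals and the floor of 3 reads cover counting error only. DESeq2 1.42.0, limma-voom (limma 3.58.1), 3 other scalings, 2 other filters and edgeR's newer quasi-likelihood method were alternatives. Exon lengths and overlaps are from GENCODE M21, another build than the authors', so the lengths are approximate. Named were the 10 genes, every called pathway gene, else the 2 other genes of highest mean CPM per list. 1 listed item is not reported here. The members and lists were chosen with earlier results of these data known.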

Additional observations from a re-analysis of the deposited data

How the results depend on the processing

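Each of the 10 genes kept its direction under the 8 alternative settings, and Dll1, Jag1 and Rbpj stayed called under all 8. The 3 genes that rose became 1 (Dll1) with DESeq2, which called 447 genes higher and 371 lower across the table, against 773 and 649. Pathway genes called higher numbered 2 with RLE scaling, 1 with DESeq2, 7 with no low-count filter and 8 with at least 1 CPM in all 3 libraries, against 4; the additions under the filters were Notch2, Lfng, Hes6 and, under the last, Furin. Lfng was also called with total counts only. The cause was not tested. With 1 Tead4 shRNA library left out, 0 residual degrees of freedom remain, so the single ratios carry no test. Scaling moved no ratio by more than 0.05 on the log2 scale. No paired analysis was possible because the control group has 1 library and the labels carry no replicate numbers. Depth limits Hey1 most.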
